A study of Mus musculus with 38 samples.

Results

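The comparison described here is the difference between myeloma-bearing and healthy mice that was shared by 3 cell types of the bone-lining niche. It used 28 of the 38 RNA-sequencing libraries of the series, 14 from myeloma-bearing and 14 from healthy mice, and left out the 10 libraries of sorted myeloma cells. Bone lining was released from crushed hindlimb bones by collagenase, and 100 cells were sorted for each library as CD31+ endothelial cells (EC), Sca1+ALCAM- stromal progenitors (SP) or ALCAM+Sca1- osteoprogenitors (OP), all gated as negative for CD45 and Ter119. The mice were of the strain C57Bl/KaLwRijHsd, which has a working immune system and accepts the 5TGM1 murine myeloma line. At 8 to 10 weeks of age they received PBS vehicle (healthy) or 1000000 cells of 5TGM1-GFP, a myeloma line carrying green fluorescent protein, into a vein. All were culled on day 23, and neither group had any other treatment. EC and SP had 5 libraries in each condition and OP had 4. Libraries are named by the replicate letter in their title. Nothing in the labels ties a letter to an animal, so that the p-values below measure the spread between libraries, which may be partly technical, and in sorted bulk samples fewer cells of a type and less RNA per cell cannot be told apart.

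Interferons are secreted cytokines that bind cell-surface receptors and act through JAK kinases and STAT transcription factors. A complex of STAT and IRF9 proteins binds interferon-stimulated response elements in the promoters of target genes. The target genes encode nucleic acid sensors, proteins that block viral entry, translation or release, GTPases that attack pathogen vacuoles, and the machinery that presents antigen on MHC class I. Endothelium and bone marrow stroma both carry these receptors and respond to them.

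Reads on genes, recovered from the deposited values, ranged from 11991647 to 34883291 in the 28 libraries, and 11713 genes were above 1 RPKM (reads per kilobase of gene and 1000000 reads) in at least 4 of them and were tested. Markers largely followed the labels: all 7 of the markers of EC, all 10 of OP and 4 of the 6 of SP had their highest mean level in the type they name. The exceptions were Ly6a, which encodes Sca1, and the chemokine Cxcl12, both highest in EC. The EC library L of a healthy mouse had the fewest genes above 1 RPKM, 4501 against 5834 to 9096 in the others. Igj, the immunoglobulin joining chain made by plasma cells, lay at 0 to 10.4 RPKM in the 28 niche libraries and at 2843 to 9357 RPKM in sorted myeloma cells. Ptprc, which encodes CD45, reached 4.89 RPKM in SP library E of a myeloma-bearing mouse and 0.0975 RPKM or less in the other 27. Neutrophil markers stood far higher in 2 SP libraries than in the rest: the 8 in the table summed to 7374 RPKM in healthy library L and 8139 RPKM in myeloma-bearing library E, against 5.33 to 292 RPKM in the other SP libraries.

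Across the 3 cell types, 4 genes rose in myeloma-bearing mice and 0 fell, at an adjusted p below 0.1 and an absolute log2 difference above 1 (limma with cell type as a block, Benjamini-Hochberg adjustment). They were Ifi27l2a, Bst2, Msra and Gm4951, and they made up 0.0342% of the 11713 genes. Ifi27l2a and Bst2 are interferon-stimulated genes, and Gm4951, which RefSeq also lists as Ifgga2, belongs to the interferon-inducible GTPases. Msra, methionine sulfoxide reductase A, repairs oxidised methionine and is not on any of the gene lists used here. Ifi27l2a passed in 22 of 25 alternative fits, Bst2 and Msra in 12 each and Gm4951 in 10, and with SP or OP left out the count of called genes was 0. With the letter as a random block Gm4951 did not pass (limma adjusted p = 0.106), and with means per letter only Ifi27l2a did. Without SP libraries L and E, those high in neutrophil markers, 2 genes passed, Ifi27l2a at 3.75 ± 0.60 and Gm4951 at 2.75 ± 0.54 (limma adjusted p = 0.00757 and 0.0936), while Bst2 had 2.16 ± 0.47 and Msra 3.07 ± 0.66 (limma adjusted p = 0.139 for both). At an unadjusted p below 0.05 the count was 684, of which 394 were higher (3.36%) and 290 lower (2.48%).

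Ifi27l2a, an interferon-induced membrane protein of mitochondria and the nuclear envelope, had the largest log2 difference of the 4 and the smallest p on the log2(RPKM + 1) scale. With a pseudocount of 0.1 the difference of Msra was as large (5.02 against 4.97 for Ifi27l2a), and with voom on recovered reads Ifi27l2a had 3.14 ± 1.06 and did not pass (limma adjusted p = 0.444), beside 6.16 for Msra and 5.27 for Gm4951. In OP of healthy mice it was at 0, 0.342, 0 and 0 RPKM in libraries L, M, N and O, which is 2 reads in all, and in OP of myeloma-bearing mice it was at 109, 229, 37.6 and 59.7 RPKM in D, G, I and J. In SP it was at 7.01, 0.506, 173, 42.5 and 28.5 RPKM in the healthy libraries C, L, M, N and O and at 138, 299, 897, 856 and 673 RPKM in the myeloma-bearing D, E, G, I and J. The groups did not overlap in OP, and in SP they overlapped only through healthy library M, which was above myeloma-bearing library D. In EC the level was already 95.4, 27.9, 1051, 459 and 312 RPKM in healthy mice, against 531, 1004, 466, 1243 and 374 RPKM in myeloma-bearing mice, and the 2 ranges overlapped. The shared log2 difference was 4.03 ± 0.63 (SE, limma adjusted p = 0.00386), made up of 6.35 ± 1.03 in OP, 4.59 ± 0.92 in SP and 1.62 ± 0.92 in EC, on the log2(RPKM + 1) scale. The test of whether these 3 differences were unequal gave an unadjusted p of 0.0058 and an adjusted p of 0.788 (limma), so that the order was not distinguishable after adjustment over all genes. Ifi27l2a lies on the minus strand of chromosome 12 (GRCm38, 103442167 to 103443680, GENCODE). Its relatives Ifi27 (103434211 to 103440239) and Ifi27l2b (103450898 to 103457223) lie on either side, and RefSeq's span of Ifi27l2a also covers Ifi27, so that the value may hold reads of more than one family member.

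Bst2, also named tetherin, is a membrane protein that holds budding virions at the cell surface. In EC it was at 80.9, 687, 346, 196 and 98.9 RPKM in healthy libraries C, L, M, N and O and at 727, 1218, 463, 410 and 628 RPKM in myeloma-bearing libraries D, E, G, I and J. In SP it was at 1.79, 0.229, 20.4, 0.299 and 27.5 RPKM in healthy mice and at 73.2, 186, 53.9, 113 and 14.97 RPKM in myeloma-bearing mice. In OP it was at 34.3, 30.8, 29.6 and 23.3 RPKM in healthy mice and at 73.2, 437, 103 and 77.2 RPKM in myeloma-bearing mice. The OP groups did not overlap. In SP only library J of the myeloma-bearing mice fell within the healthy range, and in EC the overlap came from healthy library L. The shared log2 difference was 2.53 ± 0.49 (limma adjusted p = 0.0667), and 10 of the 14 myeloma-bearing libraries exceeded all healthy ones of their own type. Bst2 is on chromosome 8 (GRCm38, 71534255 to 71537472, minus strand), with no other annotated gene overlapping it.

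Msra was close to absent in some libraries and abundant in others. In EC of healthy mice it had 0, 0, 0, 1 and 1 reads, which is at most 0.0243 RPKM, whereas myeloma-bearing EC were at 62.6, 26.0, 23.0, 57.1 and 0.0898 RPKM in D, E, G, I and J. The groups did not overlap, although library J, with 6 reads, lay close to the healthy ones. In SP the healthy libraries were at 1.83, 0.0302, 11.3, 0.0473 and 0.0231 RPKM and the myeloma-bearing ones at 9.33, 9.13, 29.1, 0.124 and 9.68 RPKM. In OP the healthy libraries were at 0, 2.53, 7.17 and 0 RPKM and the myeloma-bearing ones at 21.9, 4.52, 66.7 and 13.6 RPKM. Both SP and OP overlapped between conditions. The shared log2 difference was 3.09 ± 0.61 (limma adjusted p = 0.0667). Msra spans 333283 bases of chromosome 14 (GRCm38, 64122621 to 64455903, minus strand), and the antisense gene 9630015K15Rik overlaps one end of it. The authors' counting did not use strand, so reads from the overlap may have been left out of Msra or counted in it.

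Gm4951 had the most separated libraries of the 4, with 13 of 14 myeloma-bearing libraries exceeding all healthy ones of their own type. In EC it was at 7.22, 5.44, 0, 6.88 and 1.32 RPKM in healthy mice and at 94.9, 61.0, 55.3, 99.0 and 45.9 RPKM in myeloma-bearing mice. In SP all 5 healthy libraries were at 0.0346 RPKM or below, and myeloma-bearing libraries were at 0.0552, 0, 6.55, 0.167 and 19.0 RPKM in D, E, G, I and J. In OP the healthy libraries were at 0.148, 0, 0.0233 and 0.0205 RPKM and the myeloma-bearing ones at 1.16, 13.1, 0.166 and 5.82 RPKM. Several of these myeloma-bearing values rest on few reads, 11 in SP library I and 7 in OP library I, and 2 in SP library D. Healthy SP libraries N and O also had 2 reads each, and healthy OP library L had 5. Library D of SP and library I of OP therefore lay above the healthy ones by very little. EC and OP did not overlap between conditions, and SP overlapped through library E. The shared log2 difference was 2.55 ± 0.52 (limma adjusted p = 0.0774). In sorted myeloma cells its mean was 0.0755 RPKM (n = 10). The processed pseudogene Gm5970 lies inside the span of Gm4951, which could take or lose reads.

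**Figure D1:**
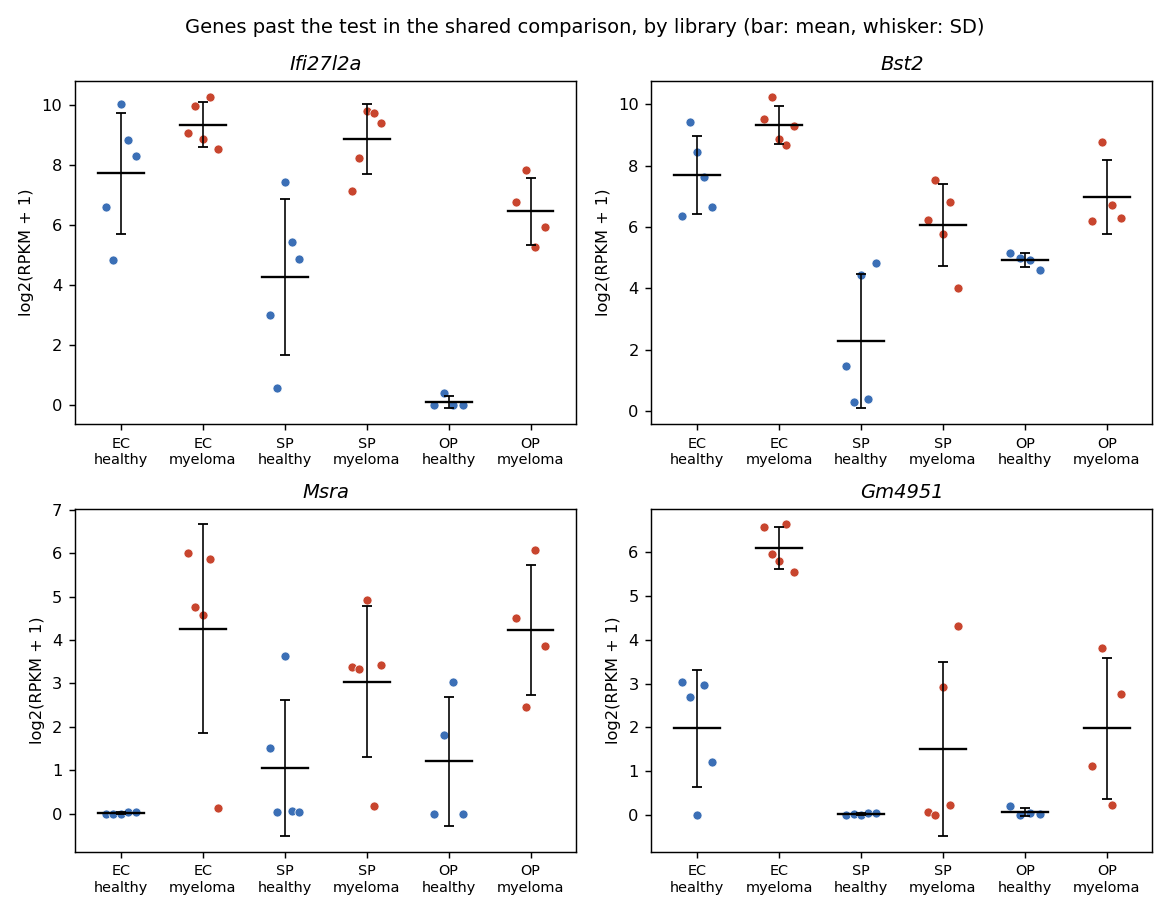
Level of Ifi27l2a, Bst2, Msra and Gm4951 in each of the 28 niche libraries, as log2(RPKM + 1), for healthy (blue) and myeloma-bearing (red) EC, SP and OP, with the mean as a bar and the SD as a whisker. The 4 healthy OP libraries sit at or near 0 for Ifi27l2a, and the 5 healthy EC libraries for Msra, while myeloma-bearing libraries are spread over several log2 units.

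The level of these 4 genes in sorted myeloma cells is given here beside their level in the niche. Bst2 averaged 190 RPKM in the 10 myeloma libraries, and in EC its mean went from 282 ± 250 RPKM (SD, n = 5) to 689 ± 322 RPKM (SD, n = 5). Ifi27l2a averaged 38.1 RPKM and Msra 8.09 RPKM in myeloma cells. In EC, SP and OP of myeloma-bearing mice the mean of Ifi27l2a was 724, 573 and 109 RPKM, and that of Msra was 33.8, 11.5 and 26.7 RPKM, so for both genes each niche mean exceeded the mean of sorted myeloma cells. For Bst2 the means were 689, 88.2 and 173 RPKM, and the SP and OP means lay below the myeloma cell mean. With Igj at no more than 10.4 RPKM in any niche library, the summed level of the 11 plasma cell markers in the table was 1.48 to 35.7 RPKM in healthy and 3.09 to 34.8 RPKM in myeloma-bearing niche libraries, against 3850 to 10712 RPKM in myeloma cells.

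The genes next in order of p included further interferon-stimulated genes, picked here after their values were seen. Of the 20 genes with the smallest p, 8 were on 6 interferon-related lists (interferon signalling, nucleic acid sensors, antiviral effectors, interferon-inducible GTPases, MHC class I and antigen processing, and MHC class II), and 16 of the 20 were higher. Of all 11713 genes, 1.2% were on these lists and 52.3% had a positive difference. Ifi44, which encodes a cytosolic interferon-induced protein, had a log2 difference of 2.86 ± 0.64 (limma adjusted p = 0.162). Ifitm3, which blocks virus entry at endosomes, had a difference of 0.82 ± 0.19 (limma adjusted p = 0.162) from a far higher level, 4497 to 11593 RPKM in healthy EC and 534 to 1077 RPKM in healthy OP. Cxcl9, a chemokine induced by interferon-gamma that attracts T cells, had a difference of 2.95 ± 0.67 (limma adjusted p = 0.162). Cfb, complement factor B, had one of 2.58 ± 0.60 and Ifit1, which binds foreign RNA cap structures, one of 3.08 ± 0.72 (limma adjusted p = 0.162 for each). The lower genes nearest the threshold were Katna1, a subunit of the microtubule-severing enzyme katanin (-1.88 ± 0.44), the COPII coat protein Sec13 (-1.52 ± 0.36) and Pdlim1, an actin-associated LIM protein (-1.82 ± 0.43), each at a limma adjusted p of 0.162. None of these passed the test.

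**Figure D2:**
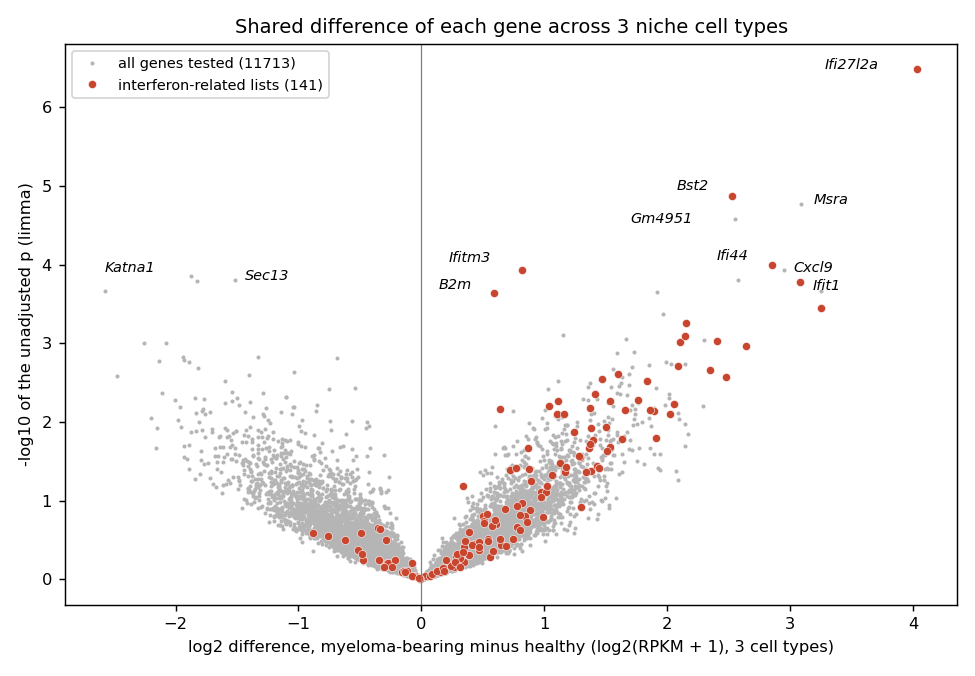
Each point is 1 of the 11713 genes tested, placed by its shared log2 difference (myeloma-bearing minus healthy, log2(RPKM + 1)) and the -log10 of its unadjusted limma p, with the 141 tested genes of the interferon-related lists in red. Of the 141, 114 lie to the right of 0 and none of the genes with an unadjusted p below 0.05 among them lies to the left.

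The 6 interferon-related lists held 175 genes, of which 150 were in the table and 141 were tested. Over all 6 lists the median log2 difference was 0.69, against 0.026 over all genes tested, and 114 of the 141 had a positive difference. At an unadjusted p below 0.05, 56 were higher (39.7%) and 0 lower, beside 3.36% and 2.48% of all genes. After adjustment over all genes only Ifi27l2a and Bst2 passed. The lists were drawn up with earlier results of these data known, so their counts are a description. By cell type the median of the 141 was 0.94 in EC, 0.59 in SP and 0.50 in OP, beside 0.017, 0.0031 and -0.010 over all genes, and the difference between these medians was not tested.

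No interferon receptor chain passed the test. The list of ligands and receptors had 6 of its 21 genes in the table, all of them receptor chains, and 5 of those were tested. Their median was -0.12, with 0 of the 5 at an unadjusted p below 0.05 in either direction. Ifnar1 and Ifnar2, the 2 chains of the type I receptor, had shared log2 differences of -0.46 ± 0.51 and 0.31 ± 0.45. Ifngr1 and Ifngr2, the 2 chains of the interferon-gamma receptor, had differences of -0.12 ± 0.33 and 0.09 ± 0.65, and Il10rb, a chain shared by the receptors of interleukin-10 and interferon-lambda, had -1.16 ± 0.66 (limma adjusted p = 0.885). Ifngr1 was well measured in every cell type, at 38.1 to 291 RPKM in healthy EC, 55.9 to 132 RPKM in healthy SP and 31.3 to 110 RPKM in healthy OP. Interferon ligands were not analysed here.

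Among the kinases, transcription factors and inhibitors of interferon signalling, 15 genes were tested, 6 had an unadjusted p below 0.05 and were higher, 0 were lower, and the median was 0.88. The transcription factor Stat2 had a shared log2 difference of 1.25 ± 0.48, Irf9 1.17 ± 0.56, Irf1 1.10 ± 0.39 and Irf7 2.05 ± 0.70, the last of them the factor that amplifies type I interferon production. The smallest p of the list was that of Usp18, which removes ISG15 from proteins and damps the type I receptor, at 2.48 ± 0.76 (limma adjusted p = 0.611). In SP, Usp18 was at 0.0286, 0.0331, 8.94, 0.0517 and 0 RPKM in healthy libraries and at 76.7, 31.6, 43.7, 0 and 18.8 RPKM in myeloma-bearing ones. Only library I of the myeloma-bearing SP lay within the healthy range.

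The nucleic acid sensors had the highest median of the lists used here, 1.37 over 15 genes, with 9 at an unadjusted p below 0.05 (60%), all higher. That median was 2.09 in EC, 0.62 in SP and 0.62 in OP. Zbp1, a sensor of Z-form nucleic acid that triggers cell death, was at 0, 0.079, 0.0593, 0.0218 and 1.37 RPKM in healthy EC and at 47.9, 45.6, 29.99, 26.0 and 106 RPKM in myeloma-bearing EC. These groups did not overlap. In SP and OP the ranges of Zbp1 overlapped, and its log2 differences were 5.23 ± 1.11 in EC, 1.87 ± 1.11 in SP and 0.36 ± 1.25 in OP, with a shared value of 2.64 ± 0.74 (limma adjusted p = 0.452) and an interaction p of 0.018 before and 0.92 after adjustment. The RNA helicases Ddx58 and Dhx58 had shared differences of 1.66 ± 0.58 and 1.60 ± 0.49. In EC, SP and OP these were 2.5, 0.58 and 1.95 for Ddx58 and 3.46, 0.77 and 0.30 for Dhx58. Ifih1, another helicase of that family, and Mb21d1, the DNA sensor cGAS, had -0.34 ± 0.60 and -0.05 ± 0.37.

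Of 68 antiviral effectors tested, 60 had a positive difference, 32 had an unadjusted p below 0.05 (47.1%), all higher, and 2 passed the adjusted test, Ifi27l2a and Bst2. The median was 0.83. Isg15, a ubiquitin-like modifier, had a shared log2 difference of 1.04 ± 0.36, Mx1, a dynamin-like GTPase that traps viral ribonucleoproteins, had 1.38 ± 0.52, and Rsad2, the radical SAM enzyme viperin, had 1.01 ± 0.55 (limma adjusted p = 0.705, 0.768 and 0.883). By cell type Isg15 differed by 1.67 in EC, 0.37 in SP and 1.08 in OP. In the same order Mx1 differed by 2.93, 0.72 and 0.27, and Rsad2 by 2.13, -0.43 and 1.43. Oasl2, an oligoadenylate synthetase-like protein, was at 0.0187 to 0.34 RPKM in 3 healthy SP libraries and at 0 in the other 2, and at 0.0233, 9.78, 9.23, 6.16 and 19.2 RPKM in myeloma-bearing SP. All but library D were above the healthy range, and the shared difference was 2.10 ± 0.58 (limma adjusted p = 0.431). Samhd1, a dNTP hydrolase and the member with the largest p, had a difference of -0.07 ± 0.60 (limma adjusted p = 0.995).

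The interferon-inducible GTPases had a positive difference in 14 of 14 tested genes, a median of 0.84 and 5 genes at an unadjusted p below 0.05, all higher. The list does not hold Gm4951. Of the interferon-related lists its medians were the closest between the cell types, 0.90 in EC, 0.96 in SP and 0.96 in OP. Ifi47, a GTPase of the IRG family, was at 0.0228 to 0.156 RPKM in the 5 healthy SP libraries and at 4.94, 41.4, 31.3, 0.0598 and 6.34 RPKM in the myeloma-bearing ones. In OP it was at 25.3, 0.0787, 12.1 and 23.5 RPKM in healthy mice and at 47.8, 59.2, 36.4 and 54.6 RPKM in myeloma-bearing mice. Myeloma-bearing SP overlapped the healthy libraries only through library I, and OP did not overlap. In EC it ranged from 15.6 to 313 RPKM in healthy and 64.6 to 445 RPKM in myeloma-bearing mice, which overlapped widely, with a log2 difference of 1.08 ± 0.94. The shared difference of Ifi47 was 2.15 ± 0.56 (limma adjusted p = 0.344), that of Igtp 2.4 ± 0.66 and that of Iigp1 2.15 ± 0.58 (limma adjusted p = 0.431 for both).

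The MHC lists had smaller medians. MHC class I and antigen processing had a median of 0.33 over 22 genes, with 4 at an unadjusted p below 0.05, all higher (18.2%). B2m, the light chain of MHC class I, had the smallest p, with a difference of 0.59 ± 0.14 (limma adjusted p = 0.167). In SP, B2m was at 2904 to 4743 RPKM in healthy mice and 3880 to 12524 RPKM in myeloma-bearing mice, and 4 of the 5 myeloma-bearing libraries were above the healthy range. H2-K1, a class I heavy chain, differed by 0.00 ± 0.34 in EC, 1.44 ± 0.34 in SP and 0.45 ± 0.37 in OP, with a shared value of 0.64 ± 0.22 (limma adjusted p = 0.705). H2-K1 and other class I heavy chains are near-identical over stretches, and reads that fit more than one of them could be lost or misplaced. MHC class II had a median of -0.48 over 7 genes, with 0 at an unadjusted p below 0.05. H2-Aa, an MHC class II chain, ranged from 0 to 382 RPKM in healthy and 0 to 147 RPKM in myeloma-bearing EC, and was at or below 0.3 RPKM in all SP and OP libraries.

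**Figure D3:**
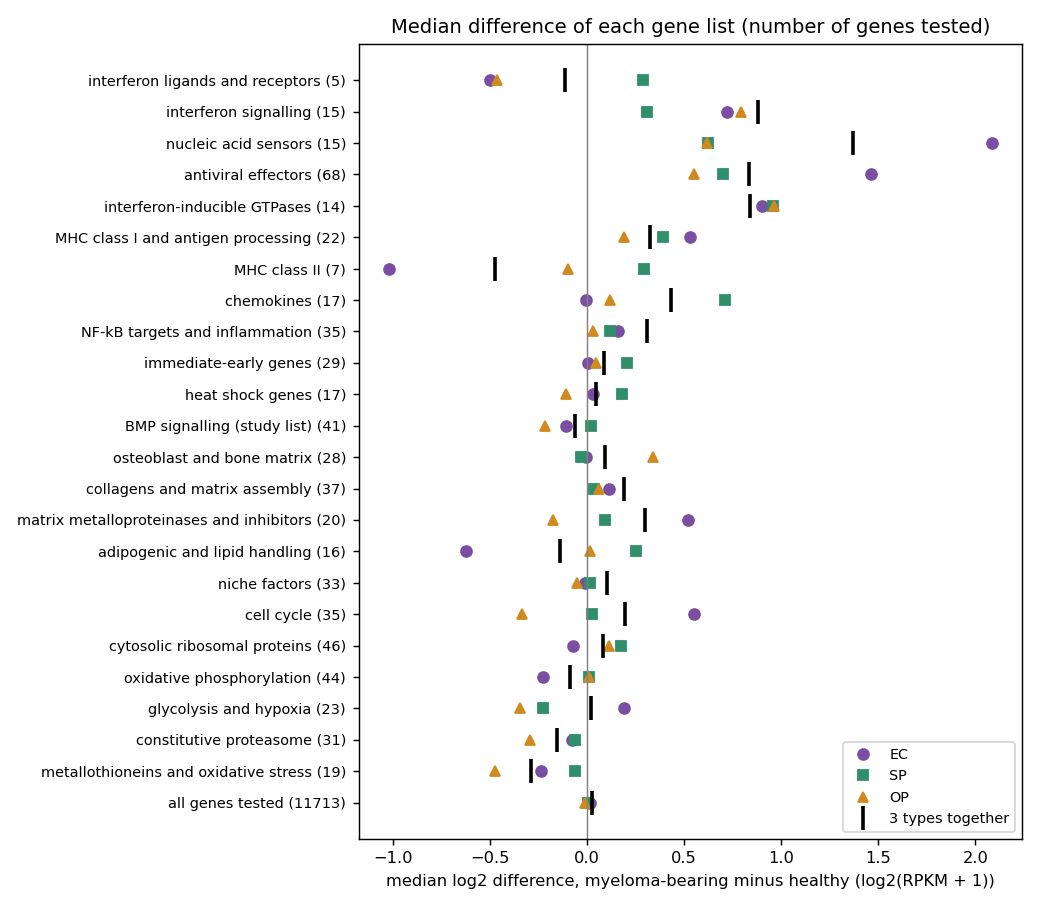
Median log2 difference (myeloma-bearing minus healthy, log2(RPKM + 1)) of the tested genes of each list in EC, SP and OP and in the 3 types together, with the number of genes tested in parentheses. The medians of sensors, effectors, GTPases and interferon signalling lie at 0.83 to 1.37 for the 3 types together, and that of all genes at 0.026.

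Few genes separated the conditions fully. In EC 60 genes (0.512%) had all myeloma-bearing libraries above all healthy ones, in SP 44 (0.376%) and in OP 152 (1.3%), and of the 141 interferon-related genes 8, 1 and 9 did so (5.67%, 0.709% and 6.38%). OP had 4 libraries in each condition and EC and SP had 5, and full separation is easier to reach with fewer libraries, so the counts of OP are not comparable with those of EC and SP. In EC the 8 were Dhx58, Ifi44, Ifit2, Lgals9, Mx2, Phf11b, Phf11d and Zbp1, in SP the 1 was H2-T23, a non-classical MHC class I chain, and in OP the 9 were Bst2, Ddx58, Ifi27l2a, Ifi47, Irgm2, Mnda, Mov10, Plac8 and Pml. No gene did so in all 3 types, 4 did so in 2 of them (0.0342%: Gm4951, Fam78b, Pptc7 and Trim30d, an interferon-inducible TRIM protein), and 1 was lower in the same way in 2 types (0.00854%). For Trim30d the 2 types were SP and OP, with 0 reads in all healthy libraries. The lowest myeloma-bearing libraries had 1 read in SP and 4 in OP.

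Another view of a shared response, which uses no test, counts genes with a log2 difference above 1 in EC, in SP and in OP separately. There were 71 such genes (0.606% of those tested), of which 15 were on the interferon-related lists, and 39 genes with a difference below -1 in each type (0.333%), of which 0 were on those lists. These counts depend on the settings: the 71, 39 and 15 became 241, 158 and 27 with a pseudocount of 0.1 and 460, 247 and 35 with voom on recovered reads. Without letter L or G the interferon-related genes numbered 8 and 9, and without L, J or G the lower genes numbered 62, 73 and 84. The 15 are 10.6% of the 141 tested. They included 10 antiviral effectors (Ifi27l2a, Bst2, Ifi44, Ifit1, Oasl2, Rtp4, Phf11d, Trim30a, Ifit3 and Sp100), 3 GTPases (Ifi47, Iigp1 and Igtp) and the inhibitor Usp18. The other 56 of the 71 included Msra and Gm4951, Cxcl9, Cfb, the membrane protein gene Ms4a4d, the inflammatory caspase Casp4, and the glucocorticoid-responsive genes Per1 and Klf9. Only 4 of the 71 passed the adjusted test, the same 4 genes named above. Phf11d had the most even differences of the 15, at 1.33 in EC, 1.64 in SP and 1.64 in OP, and 11 of 14 myeloma-bearing libraries were above the healthy libraries of their type.

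**Figure D4:**
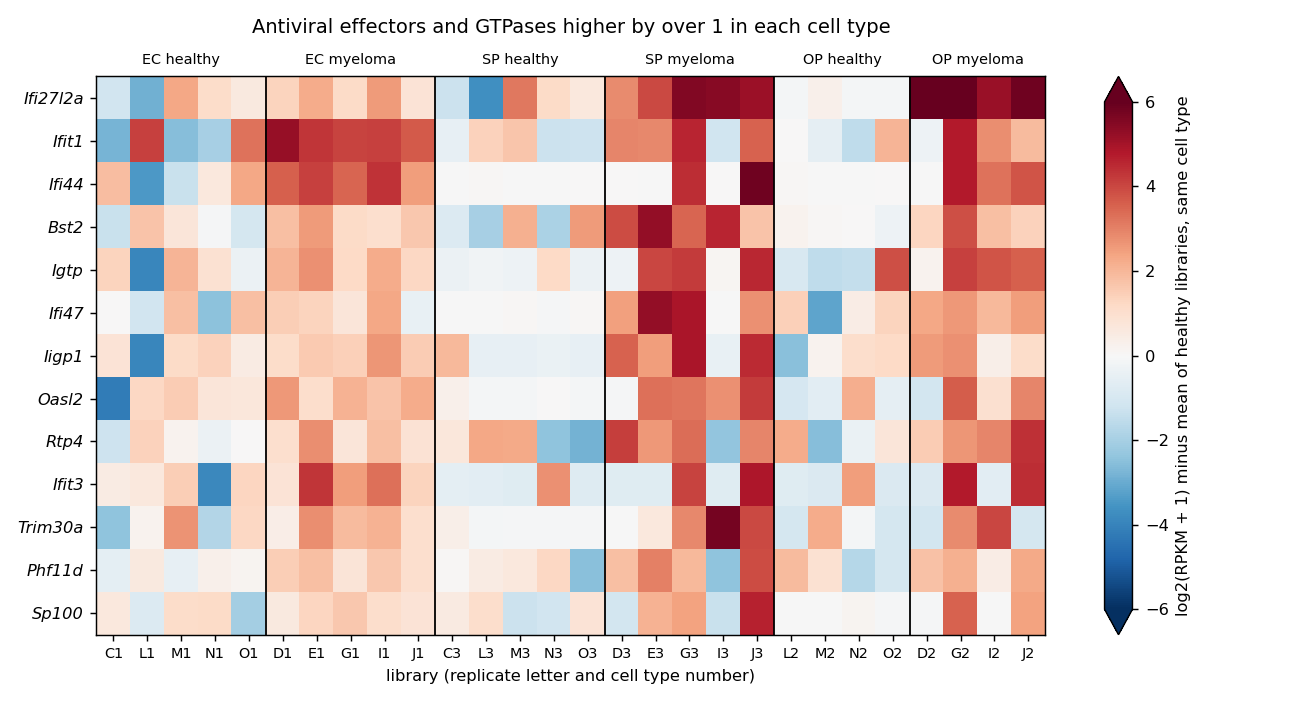
Each row is 1 of the 10 antiviral effectors and 3 interferon-inducible GTPases with a log2 difference above 1 in EC, SP and OP, and each column 1 of the 28 libraries, coloured by log2(RPKM + 1) minus the mean of the healthy libraries of the same cell type (colours end at -6 and 6). Myeloma-bearing EC are red for nearly all of these genes, whereas SP libraries D and I and OP library D are near or below the healthy mean for several of them.

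The spread among myeloma-bearing libraries differed from one cell type to the next. In EC of myeloma-bearing mice the mean log2(RPKM + 1) of the 141 genes was 4.68, 5.05, 4.67, 5.09 and 4.95 in D, E, G, I and J, against 3.59, 3.15, 3.88, 3.84 and 4.47 in C, L, M, N and O of healthy mice. These groups did not overlap. In SP the level was 2.62, 2.81, 3.46, 2.23 and 3.52 in myeloma-bearing libraries D, E, G, I and J and 2.31, 2.10, 2.57, 2.01 and 1.98 in healthy C, L, M, N and O. In OP it was 2.03, 3.54, 2.63 and 3.07 in myeloma-bearing D, G, I and J and 2.25, 2.17, 2.43 and 2.18 in healthy L, M, N and O. One myeloma-bearing library in each of SP and OP was therefore inside or below the healthy range, library I of SP and library D of OP. The number of tested genes above 1 RPKM moved with this level in SP and OP of myeloma-bearing mice, and its part in it was not tested. In OP it was 6660, 8930, 7457 and 8637 in D, G, I and J, in the same order as the level, and in SP it was 6820, 7677, 7952, 6457 and 7739 in D, E, G, I and J, with I and D lowest in both. In EC of myeloma-bearing mice the order differed, at 6092, 5893, 7689, 6564 and 7534 genes. The median number of genes in myeloma-bearing and healthy libraries was 6564 and 6109 in EC, 7677 and 7294 in SP, and 8047 and 7633.5 in OP, with overlapping ranges. Healthy EC also stood above healthy SP and OP, with means of 3.79 ± 0.48 (SD, n = 5), 2.19 ± 0.25 (SD, n = 5) and 2.26 ± 0.12 (SD, n = 4). Ifi44 varied among the myeloma-bearing SP libraries as well. It was at 0.0806 RPKM or below in all 5 healthy SP libraries and at 21.0 and 58.9 RPKM in myeloma-bearing SP libraries G and J, but at 0.0503 RPKM or below in D, E and I, of which D and E lay above the healthy range for the mean of the 141 genes.

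**Figure D5:**
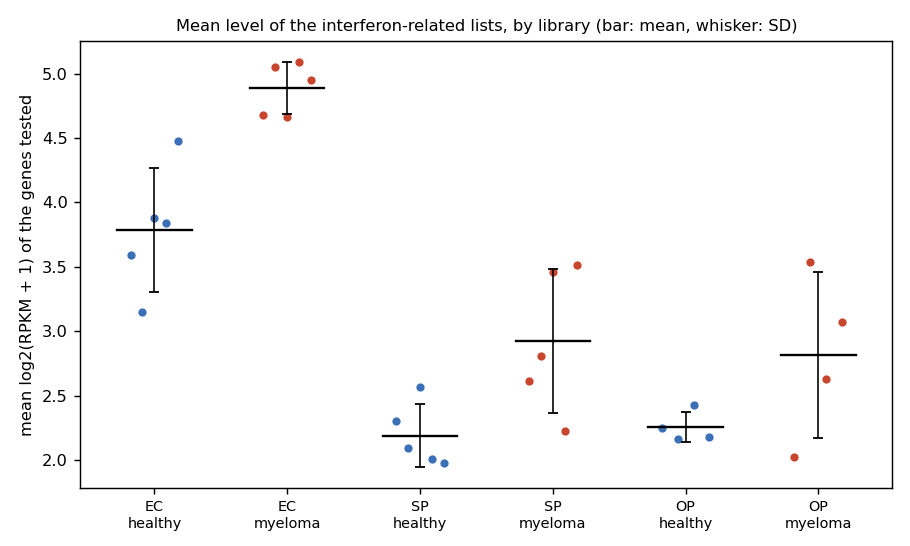
Mean log2(RPKM + 1) of the 141 tested genes of the interferon-related lists in each library, for healthy (blue) and myeloma-bearing (red) EC, SP and OP, with the mean as a bar and the SD as a whisker. EC do not overlap between conditions, while SP and OP do, with 1 myeloma-bearing library of each within or below the healthy libraries.

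Markers of other cell types moved with some of these values, and their part in them was not tested. In SP the summed level of the 18 endothelial markers was 9.68 to 99.9 RPKM in healthy and 215, 79.2, 227, 14.6 and 251 RPKM in myeloma-bearing libraries D, E, G, I and J, against 8927 to 24154.5 RPKM in EC. In D, G and J the highest of the 18 was Fabp4, a fatty acid-binding protein that adipocytes also make, at 182, 158 and 176 RPKM, and 11 of the 18 markers stayed at or below 1 RPKM in every myeloma-bearing SP library. In SP library E the 14 macrophage or monocyte markers in the table summed to 678 RPKM, led by Tyrobp, against 76.4 to 253 RPKM in healthy SP and 77.6 to 156 RPKM in the other myeloma-bearing SP libraries. In EC those 14 markers summed to 666 to 2142 RPKM in healthy and 666 to 1213 RPKM in myeloma-bearing mice. SP library E was also 1 of the 2 libraries with high neutrophil markers, where S100a8, an abundant neutrophil calcium-binding protein, was at 5174 RPKM, beside 4728 RPKM in healthy library L. The erythroid markers in the table summed to 35.3 to 53.3 RPKM in healthy and 37.0 to 124 RPKM in myeloma-bearing OP, and to 0.0870 to 34.6 and 11.6 to 108 RPKM in EC.

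Promoters of the genes with a difference above 1 in each type were searched for the core letters of the interferon-stimulated response element, GAAANNGAAA, on both strands, from 250 bases before to 50 after the start of transcription (RefSeq, GRCm38.p6). Of 48 of the 71 genes with a promoter in the table, 6 held the letters (12.5%), as did 5 of the 10 listed interferon-related ones (50%), beside 3.61% of the 8732 tested genes with a promoter and 3.99% of all 27025 genes. Outside the lists 1 of 38 held them (2.63%), Inhbb, which encodes an inhibin and activin subunit, so that the 12.5% came mostly from the listed genes. Of the 23 lower genes with a promoter 0 held them. The counts are a description, and a match is not a binding site. Ifi27l2a, Msra and Gm4951 had no entry. The 5 promoters of listed genes with a match are given 5′ to 3′ on the strand of the gene, with matched letters in capitals. Ifi44 is shown as a gene without a match at this exact spacing, which does not mean that its promoter lacks such an element. They come from chr8:71537547-71537642 (Bst2, minus strand), chr19:34640745-34640853 (Ifit1, plus), chr19:34583333-34583456 (Ifit3, plus), chr11:58199482-58199555 (Igtp, plus), chr7:104465194-104465269 (Trim30a, minus) and chr3:151749911-151750050 (Ifi44, minus).
Bst2: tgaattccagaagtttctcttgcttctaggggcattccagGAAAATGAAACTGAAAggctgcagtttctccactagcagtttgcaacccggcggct
Ifit1: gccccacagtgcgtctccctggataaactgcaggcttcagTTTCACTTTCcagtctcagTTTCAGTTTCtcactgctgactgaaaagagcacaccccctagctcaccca
Ifit3: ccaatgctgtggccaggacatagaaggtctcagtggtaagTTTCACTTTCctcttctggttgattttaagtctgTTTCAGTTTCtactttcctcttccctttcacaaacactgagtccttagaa
Igtp: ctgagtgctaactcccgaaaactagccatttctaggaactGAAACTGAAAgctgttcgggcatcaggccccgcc
Trim30a: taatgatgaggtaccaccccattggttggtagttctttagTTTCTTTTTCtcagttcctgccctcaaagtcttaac
Ifi44: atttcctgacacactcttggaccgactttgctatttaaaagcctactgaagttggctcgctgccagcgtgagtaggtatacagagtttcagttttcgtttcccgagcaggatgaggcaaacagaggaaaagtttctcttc
Bst2 had 2 overlapping matches, which begin 130 and 124 bases before its start. Igtp had 1 at 34 bases. Ifit1 had 2 matches at 104 and 85 bases, Ifit3 2 at 156 and 122 bases and Trim30a 1 at 36 bases, all with the letters on the opposite strand. Of these 5 genes Bst2 passed the adjusted test, and Ifit1, Igtp, Trim30a and Ifit3 had shared differences of 3.08 ± 0.72, 2.4 ± 0.66, 1.86 ± 0.65 and 1.91 ± 0.75 (limma adjusted p = 0.162, 0.431, 0.705 and 0.782).

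Apart from the lists of cell markers, those outside the interferon pathway had medians between -0.29 and 0.43 and no called member in the main fit. Alternative fits called some genes of this kind. Cxcl9 was called with array weights, with all 38 libraries and without letter D, and Postn without letter D. All 38 libraries also called Tnfsf11 and Npy, and voom on recovered reads called the bone matrix genes Bglap and Col1a2. Chemokines had a median of 0.43 over 17 genes, with 2 higher at an unadjusted p below 0.05, Cxcl9 the smaller p of them. The NF-kB targets had a median of 0.31 over 35 genes, with 4 higher and 2 lower, and the smallest p was that of Ptgs2, which encodes cyclooxygenase-2, at -1.37 ± 0.49 (limma adjusted p = 0.743). Genes of BMP signalling had a median of -0.06 over 41 genes, with 2 higher and 2 lower. This list of 42 genes was taken from a set the study drew up and is shorter than that set. Tnfsf11, which encodes the osteoclast-inducing ligand RANKL, had the smallest p in that list, with a shared log2 difference of 1.54 ± 0.49 (limma adjusted p = 0.668), at -0.03 in EC, 1.97 in SP and 2.98 in OP. Osteoblast and bone matrix genes had a median of 0.09 over 28 genes and collagens one of 0.19 over 37 genes, their smallest p-values being those of Col1a1 (0.87 ± 0.38) and the matricellular gene Postn (2.29 ± 0.79), with limma adjusted p of 0.811 and 0.705. In EC, SP and OP these were 1.8, -0.04 and 0.79 for Col1a1 and 4.37, 2.07 and -0.02 for Postn. Matrix metalloproteinases and their inhibitors had a median of 0.30 over 20 genes, with Mmp3, stromelysin, at -1.54 ± 0.52 (limma adjusted p = 0.705). Mmp3 differed by -0.17 in EC, where it was at 0.478 RPKM or less, -1.5 in SP and -3.3 in OP. Adipogenic and lipid handling genes had a median of -0.14 over 16 genes and niche factors one of 0.10 over 33 genes. Their smallest p-values were those of Plin2, a coat protein of lipid droplets (-1.66 ± 0.72), and the neuropeptide Npy (-1.77 ± 0.59), with limma adjusted p of 0.8 and 0.705. Plin2 differed by -1.91 in EC, -2.19 in SP and -0.67 in OP. The difference of Npy lay mostly in OP, at -4.98, against -0.59 in EC and -0.38 in SP (limma interaction, adjusted p = 0.457).

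Housekeeping and metabolic lists had medians near that of all genes. Cytosolic ribosomal proteins had a median of 0.08 over 46 genes, oxidative phosphorylation -0.09 over 44, glycolysis and hypoxia 0.02 over 23 and the constitutive proteasome -0.16 over 31. A lopsided sign also occurred among them with small differences, since 38 of the 46 ribosomal protein genes had a positive difference and 10 of the 31 proteasome genes. Ndufv1, a subunit of respiratory complex I, and Psmb2, a proteasome subunit, had the smallest p of their lists at -1.48 ± 0.50 and -0.53 ± 0.23 (limma adjusted p = 0.705 and 0.8). Ndufv1 differed by -3.18 in EC, 0.08 in SP and -1.3 in OP. Rps20, a protein of the small ribosomal subunit, and Egln3, a prolyl hydroxylase that acts on hypoxia-inducible factors, had those of the other 2 lists, at 0.48 ± 0.23 and -1.30 ± 0.54 (limma adjusted p = 0.842 and 0.782). Egln3 differed by -0.009 in EC, -1.1 in SP and -3.21 in OP. Heat shock genes had a median of 0.05, with the smallest p for the small heat shock protein Hspb8 (-1.05 ± 0.58, limma adjusted p = 0.883), and immediate-early genes, which respond to cell handling, one of 0.09. Egr2 had the smallest p of the latter, with a difference of 1.86 ± 0.64 (limma adjusted p = 0.705). Cell cycle genes had a median of 0.19, at 0.55 in EC, 0.02 in SP and -0.34 in OP, with 1 of 35 higher and 1 lower at an unadjusted p below 0.05. Mcm3, a subunit of the replicative helicase, had the smallest p of that list, at -1.33 ± 0.55 (limma adjusted p = 0.783). Mcm3 differed by -2.63 in EC, -0.09 in SP and -1.3 in OP. The lowest medians were those of MHC class II, and of metallothioneins and oxidative stress genes (-0.29 over 19 genes). The smallest p of the latter list was that of the metal-binding protein Mt1, with a positive difference of 0.60 ± 0.22 (limma adjusted p = 0.768). Hmox1, the heme-degrading enzyme heme oxygenase 1, was picked after its values were seen and was below -1 in each cell type. In OP, Hmox1 was at 157, 58.7, 172 and 90.0 RPKM in healthy libraries L, M, N and O and at 0, 89.1, 9.73 and 65.3 RPKM in myeloma-bearing D, G, I and J, and the ranges overlapped. Its shared difference was -2.15 ± 0.81 (limma adjusted p = 0.768). Il15, a cytokine that sustains NK cells, was also below -1 in each type, at -1.83 ± 0.70 (limma adjusted p = 0.768). Its healthy and myeloma-bearing ranges overlapped in every cell type, at 68.2 to 154 and 0 to 126 RPKM in EC.

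No gene passed the test of a difference between the 3 cell types. The smallest adjusted p was 0.189 (limma, F test of the interaction), and 572 genes (4.88%) had an unadjusted p below 0.05, of which 13 were among the 141 interferon-related genes (9.22%). The 6 genes with the smallest p were Ehf, Pdlim1, 4632415L05Rik, Pydc4, Ifit2 and Wars2. Ehf, an epithelial ETS factor, was at 0, 2.38, 0 and 0 RPKM in healthy and 33.6, 7.98, 18.5 and 13.3 RPKM in myeloma-bearing OP, which did not overlap, and at 7.28 RPKM or less in all EC and SP libraries. Pdlim1 was at 19.8, 40.5, 14.2 and 25.3 RPKM in healthy and 0.0656, 0.0361, 0.0418 and 0.163 RPKM in myeloma-bearing OP, again without overlap, while its log2 difference was -0.53 ± 0.53 in EC and -0.99 ± 0.53 in SP. Ifit2, an interferon-stimulated relative of Ifit1, was at 0.0292, 0.0288, 3.32, 2.12 and 1.97 RPKM in healthy EC and 11.6, 59.6, 33.6, 81.4 and 70.3 RPKM in myeloma-bearing EC. Its log2 difference was 4.36 ± 0.85 in EC, -1.45 ± 0.85 in SP and 1.2 ± 0.95 in OP (limma interaction, adjusted p = 0.379). Pydc4, an interferon-inducible pyrin-domain gene, differed by 3.91 ± 0.64 in EC and 0.02 in each of SP and OP, where it was at 0.0843 RPKM or less.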

How the data were processed

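The authors aligned 50-base single-end SmartSeq2 reads with STAR 2.4.0 to GRCm38 (mm10), counted them per gene with featureCounts of Subread 1.4.5-p1 at default settings, kept genes above 1 count per 1000000 reads in no fewer than 4 samples and made RPKM values with edgeR. The deposited RPKM table (13260 genes, 38 libraries) was the starting point here, with groups taken from the labels. Values were used as log2(RPKM + 1) for the 11713 genes that exceeded 1 RPKM in 4 or more of the 28 niche libraries. limma 3.58.1 (R 4.3.3) with an intensity trend fitted 1 effect of disease with cell type as a fixed block, and an F test compared the effects of the 3 cell types. All p-values were adjusted over all genes by the Benjamini-Hochberg method. Because each RPKM value is a whole read divided by library size and gene length, the reads of all 13260 genes could be recovered (tolerance 0.0001 of a read), and were used for read counts and for 1 alternative, voom. Reads are not unique molecules, and PCR duplicates were not removed from single-end data. Of 26 pairs of libraries with the same letter, 0 correlated above 0.1 after removal of group means, and letters were not used as a block in the main fit. Low correlations do not show that libraries of a letter are independent. Alternatives were a pseudocount of 0.1, other filters, scalings, weights and thresholds, all 38 libraries, a letter block, letter means, and leaving out each letter, each cell type, library L of EC, and libraries L and E of SP. The members and lists were chosen with earlier results of these data known. Named genes were the called genes, the smallest p of each list without a called member and the largest p of each list with one, the 6 smallest interaction p-values and the interferon receptors; all others were added after the values were seen. One listed gene is not reported here by name.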

Additional observations from a re-analysis of the deposited data

Results flagged for a closer look

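Within single groups, 3 values of the called genes stood far from the rest, by the gap to the nearest library as a share of the group's range of log2(RPKM + 1), in 24 groups of 4 or 5 libraries of these genes and 6 of the mean interferon level. The gap was held against the critical value of Dixon's test, which by its construction marks about 1 group in 20 by chance. In healthy OP, library M had the only reads of Ifi27l2a, 2 in number, so that its gap was the whole range (1.0). In myeloma-bearing EC, library J had 6 reads of Msra where the other 4 libraries had 724 to 2266, and its gap was 0.76 of the range. In healthy OP, library L had 5 reads of Gm4951 and a gap of 0.833 of the range, where the other 3 libraries had at most 1 read.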

How the results depend on the processing

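The 4 called genes became 2 with a pseudocount of 0.1, 1 without a filter on low values, 1 with means per letter, 1 at an adjusted p below 0.05, 13 with array weights, 23 with all 38 libraries and 15 with voom on recovered reads, where Ifi27l2a and Bst2 were not called (Ifi27l2a adjusted p = 0.444). The stricter filter, median-ratio scaling (which moved the median of all genes from 0.026 to 0.040), no trend and no threshold on the fold each called 4. The count was 2 without libraries L and E of SP. It was 2 without EC, 0 without SP and 0 without OP, where 614, 604 and 584 genes had an unadjusted p below 0.05. Leaving out 1 letter gave 1 to 7 genes: 1 without C, E, G, N or O and 7 without D, and Ifi27l2a was called in each of these fits. The 2 interferon-related calls became 1 with a pseudocount of 0.1, without a filter, with means per letter and at an adjusted p below 0.05, 7 with array weights, 6 with all 38 libraries, 3 without library L of EC and 1 without libraries L and E of SP (fits chosen after seeing the data), 0 without SP and 0 without OP, and 1 to 4 when 1 letter was left out. With voom on recovered reads the interferon-related calls numbered 3, without Ifi27l2a and Bst2. Plac8, not called in the main fit, was called with voom, array weights, all 38 libraries, without letter L and without EC. Genes that differed between cell types numbered 0, but 1 with a pseudocount of 0.1, 4 without a filter, 2 with array weights, 35 with all 38 libraries, 5 with voom and 0 to 4 without 1 letter.

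The counts above 1 in each cell type, tried under settings chosen after seeing the data, moved most with the pseudocount and with voom. The 71 higher, 39 lower and 15 interferon-related genes became 241, 158 and 27 with a pseudocount of 0.1 and 460, 247 and 35 with voom, but 58, 31 and 15 under the stricter filter and 71, 39 and 15 without one. Leaving out 1 letter gave 52 to 99 higher, 31 to 84 lower and 8 to 20 interferon-related genes, the lowest interferon-related counts being 8 without L and 9 without G.

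The letter as a random replicate block called 3 genes, without Gm4951, at a correlation of 0.0214 between libraries of a letter. Same-letter pairs correlated slightly more, with a median of 0.018 (-0.0119 to 0.0862) over 26 pairs against -0.0079 over 104 other pairs. Whether letters pair libraries was not tested.

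Among genes named by the rule, the sign turned for some that had not passed the test. Samhd1 turned to 0.012 with a pseudocount of 0.1, 0.192 with voom and 0.338 without OP, and lay at -0.334 to 0.454 without 1 letter. 4632415L05Rik turned to 0.353 with voom and 0.95 without SP, Ifit2 to -0.273 without EC, Ifngr1 to 0.096 without EC, and Ifngr2 to -0.346 without SP, -0.05 without library L of EC and -0.133 without libraries L and E of SP. Without 1 letter Ifnar2 lay at -0.039 to 0.472, Ifngr1 at -0.396 to 0.119 and Ifngr2 at -0.25 to 0.484.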
